A study of Mus musculus with 15 samples.

Results

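Mouse spleen T cells kept for 14 h with concanavalin A (ConA) were compared with resting T cells at 0 h, across all genes on the arrays. The comparison uses 6 of the 15 arrays of the series, 3 at 14 h and 3 at 0 h, chosen by the time and cell type in their titles. The other 9 arrays hold T cells after 4 h with ConA, and B cells with and without lipopolysaccharide, in groups of 3. The arrays held 18194 named genes, each represented by its brightest probe set on average across the 15 arrays. The 9045 genes with a mean log2 signal of 5 or more in at least 1 group were tested. Of these, 502 lay under 5 at both 14 h and 0 h and entered through another group.

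The 14 h cells were cultured with 7.5 ug/ml ConA, and the 0 h cells received none. Both came from spleens of B6x129 mice, of an age and sex that the sources used here do not give. The 0 h cells are described as resting and naive. The sources do not say whether the 3 replicates of a group came from separate animals or cultures, so the p-values measure the spread between these samples, which may be technical. No group was cultured without ConA, so a change from 0 h cannot be told apart from one caused by culture. Equal RNA mass was labelled for every array, and for this reason neither the RNA content of a cell nor the number of cells of a type can be read from the values. The title of the series concerns Myc as an amplifier of expression in general.

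ConA is a plant lectin that binds mannose-containing glycans and clusters surface glycoproteins, the T cell receptor among them. Receptor signalling releases calcium and activates NFAT, AP-1 and NF-kappaB, which switch on cytokine genes and the interleukin 2 receptor. Resting T cells are small and metabolically quiet. Before their first division they grow, build ribosomes and mitochondria, and take up more nutrients.

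Every level below is a log2 GCRMA signal, and every change is a difference of such signals, 14 h minus 0 h unless stated, with its standard error from a model over all 15 arrays. A gene was called when its p-value, adjusted over all tested genes, was under 0.05. Arrays of the same group correlated at 0.9947 to 0.9989, and 14 h arrays correlated with 0 h arrays at 0.9717 to 0.9759. The lowest signal on any array was 2.24, and a change against a group near that floor is a lower bound. Some probe sets were constant slightly above it, such as S100a9 at 2.65 on every 14 h array. A change against such a level may be a bound too. In T 0 h replicate 2, the 3' signal of the dap spike-in RNA exceeded its 5' signal by 4.52, against 1.39 to 1.77 at 14 h and 1.93 to 1.96 on the other 0 h arrays. T 4 h replicate 1 had 5.35. Some results are also given without T 0 h replicate 2, but not all that move. Without it, translation factors had 22 rises and not 25, and trafficking and adhesion receptors had 15 falls and not 13.

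The T cell identity of the samples was checked with 11 marker genes. Their summed signal was 15.30 to 15.36 at 14 h and 15.83 to 15.88 at 0 h, and 7 of the 11 were lower at 14 h while 0 were higher. Cd3d, a subunit of the CD3 complex, had 13.39, 13.33 and 13.47 at 14 h, against 13.75, 13.81 and 13.77 at 0 h. The B cell receptor subunit Cd79a had 2.34 on every T cell array, and the B cell factor Pax5 averaged 2.2 at both times. Other B cell markers gave signal, such as H2-Ob, which averaged 7.13 at 14 h and 10.03 at 0 h, and Cd79b, which averaged 6.9 at 14 h and 7.65 at 0 h. Erythroid markers were present at 0 h and are described with the cell cycle genes.

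Of the 9045 genes, 3309 (36.6%) were higher at 14 h and 2882 (31.9%) were lower, while 2854 were not called. Counts of called members in the lists below are to be read against these shares. Rises made up 53.4% of the calls. The median change was 0.03 and the median size of a change was 0.48. The deposited values were already normalized, with array medians of 2.42 to 2.57. A shift shared by all genes would be largely hidden, so the median and the balance of calls do not measure one. A change of at least 2-fold was called upward in 954 genes and downward in 992, and one of at least 8-fold in 70 and 87. The 14 h and 0 h arrays did not overlap for 6823 genes (75.4%).

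**Figure D1:**
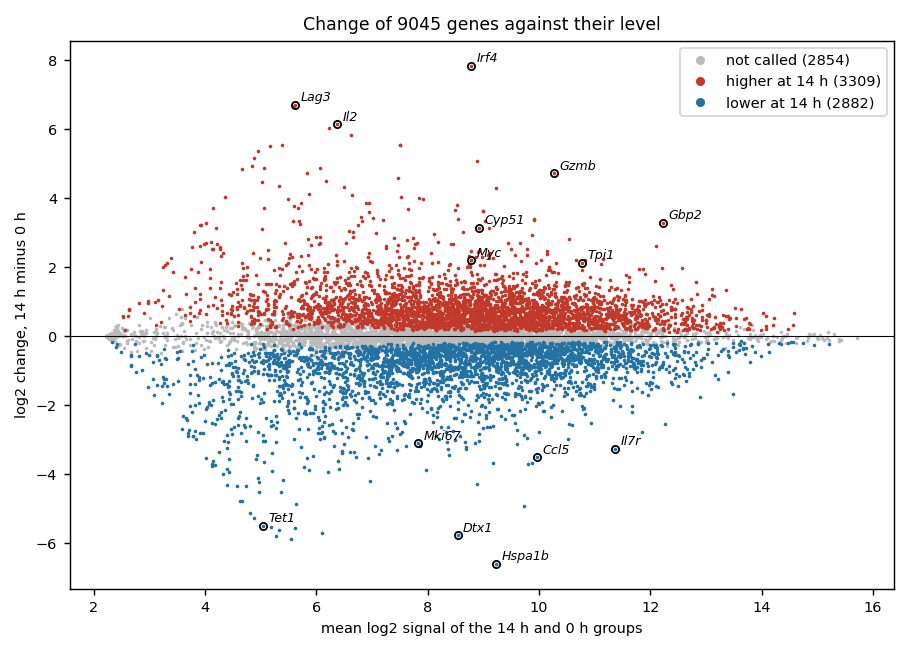
Each point is 1 of 9045 genes, with the mean log2 signal of the 14 h and 0 h groups on the x axis and the log2 change, 14 h minus 0 h, on the y axis. Red points are the 3309 called rises, blue points the 2882 called falls and grey points the 2854 genes not called. Both colours occur at low, middle and high levels.

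The number of genes at or above a signal of 5 was counted on each array. It was 8220, 8275 and 8240 on the 14 h arrays, against 8353, 8369 and 8292 on the 0 h arrays, a difference of -93 in the means. The groups did not overlap, and the two-sided exact permutation test gave p = 0.1, the smallest that 3 against 3 arrays allow. This count was also taken on normalized values, which limits how far arrays can differ.

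Myc, the transcription factor in the title, was higher at 14 h. It had 9.96, 9.69 and 10.03 at 14 h and 8.38, 6.88 and 7.80 at 0 h, and the groups did not overlap. The change was 2.21 ± 0.43 (SE, n = 3 arrays each; adjusted p = 0.000423), or 4.62-fold. It was 1.81 without T 0 h replicate 2, the lowest Myc value. Myc acts as a dimer with Max, whose change was 1.21 ± 0.19. Mxd proteins compete with Myc for Max: Mxd1 rose by 2.85 ± 0.13 and Mxd4 fell by 1.26 ± 0.17. Of 11 tested genes of the Myc network, 4 rose and 5 fell, against 36.6% and 31.9% of all genes. The median of the Myc network was -0.13, against the 0.03 of all genes. That median was -0.07 without T 0 h replicate 2 and -0.23 with the dap difference as a covariate.

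The 12 largest rises include the cytokines Il2 and Lif, the chemokines Ccl4 and Ccl22, the transcription factors Irf4 and Bhlhe40, and the receptor Lag3. Irf4, a transcription factor induced by antigen receptor signalling, had 12.77, 12.57 and 12.75 at 14 h and 5.15, 5.19 and 4.20 at 0 h. Its change of 7.85 ± 0.19 (adjusted p = 7.78e-13) was the largest of the named rises. Lag3, an inhibitory receptor that binds MHC class II, had 9.0, 8.9 and 9.01 at 14 h and 2.25, 2.26 and 2.25 at 0 h. All 3 of its 0 h values lay at the floor, so its 6.72 ± 0.09 is a lower bound. Tg, which encodes thyroglobulin, the thyroid hormone precursor, had 8.83, 9.09 and 8.88 at 14 h against 2.29, 2.24 and 2.24 at 0 h, a change of 6.67 ± 0.11.

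Il2, the T cell growth cytokine, had 9.51, 9.32 and 9.48 at 14 h, against 3.43, 3.33 and 3.11 at 0 h (6.15 ± 0.13, adjusted p = 2.69e-13). Bhlhe40, a transcriptional repressor, had 10.23, 10.24 and 10.31 at 14 h and 4.91, 4.85 and 4.42 at 0 h (5.54 ± 0.13). Bcat1, which transfers the amino group of branched-chain amino acids, changed by 5.53 ± 0.18. The arrays of these 3 genes stood apart by over 5 log2 units. Lad1, a component of epithelial anchoring filaments, rose by 6.04 ± 0.12, and Spry1, an inhibitor of receptor tyrosine kinase signalling, by 5.54 ± 0.15. Ccl4, Ccl22 and Lif complete the set and are described with their families.

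Mir155hg, the host transcript of miR-155, is among the rises with a regulatory RNA as its product. It had 9.51, 9.68 and 9.47 at 14 h, against 3.76, 3.57 and 3.76 at 0 h, a change of 5.85 ± 0.18 (adjusted p = 7.15e-12). The arrays measured the host transcript and not the mature microRNA. The mature 5' arm lies at chr16:84714143-84714165 (GRCm38.p6, plus strand, RefSeq) and is shown with its seed, bases 2 to 8, in capitals because the seed decides which messages a microRNA pairs with.
mmu-miR-155-5p: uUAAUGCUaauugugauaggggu

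The 12 largest falls include the Hsp70 genes Hspa1b and Hspa1a and the erythroid markers Ermap, Klf1 and Car1. Hspa1b, an inducible Hsp70 chaperone, had 5.86, 6.10 and 5.82 at 14 h, against 12.45, 12.49 and 12.60 at 0 h (-6.59 ± 0.12, adjusted p = 6.75e-14). Its neighbour Hspa1a had 2.66, 2.63 and 2.50 at 14 h and 8.52, 8.44 and 8.48 at 0 h (-5.88 ± 0.08). The pair is nearly identical in sequence, so probes may not separate them. Dtx1, a ubiquitin ligase of the Notch pathway, had 5.54, 5.70 and 5.70 at 14 h, against 11.35, 11.47 and 11.43 at 0 h (-5.77 ± 0.07). Tet1, which oxidises methylated cytosine, had 2.24, 2.39 and 2.24 at 14 h and 7.76, 7.69 and 7.89 at 0 h, so that all 14 h values lay near the floor.

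Slc16a5, a monocarboxylate transporter family member, and Ampd1, an AMP deaminase, were at 2.24 on every 14 h array. At 0 h Slc16a5 had 7.52, 7.38 and 7.59, and Ampd1 had 7.42, 7.61 and 7.08. Both differences are lower bounds, of -5.26 ± 0.06 and -5.13 ± 0.10. Lypd6b (-5.78 ± 0.15), Tmem163 (-5.70 ± 0.15) and Scg5 (-5.56 ± 0.15) also fell. Ermap, Klf1 and Car1 complete the set.

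**Figure D2:**
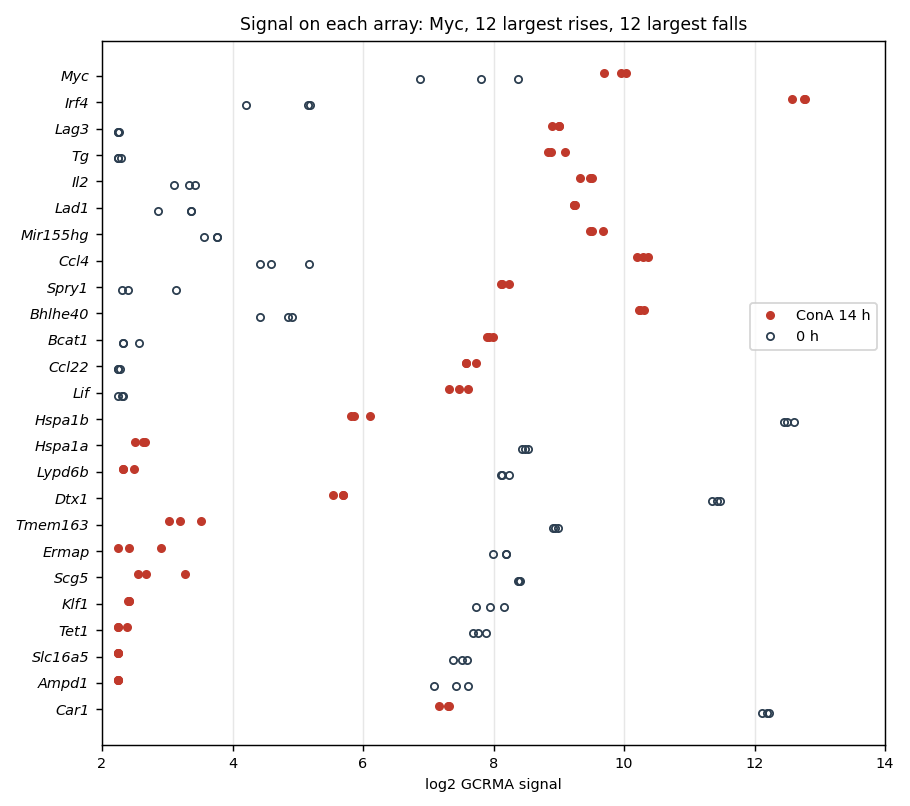
Log2 GCRMA signal (x axis) of Myc, the 12 largest rises and the 12 largest falls (rows) on each array, with filled red points for ConA 14 h and open dark points for 0 h. No gene shown has overlapping groups, which was a condition for choosing the rises and falls and held for 75.4% of all tested genes. The 0 h points of Myc, at 8.38, 6.88 and 7.80, spread widely.

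Cytokine genes rose more often than they fell, with the growth factor Il2 among them. Of 16 tested helper cytokines 11 rose and 1 fell, with a median of 1.81, against 36.6% and 31.9% of all genes and a median of 0.03. Ifng, which activates macrophages, had 9.84, 9.99 and 9.84 at 14 h against 5.96, 6.01 and 5.79 at 0 h (3.97 ± 0.21). Il6 rose by 4.89 ± 0.07 and Lif, a cytokine of the Il6 family, by 5.18 ± 0.14. The T helper cytokines Il17a (3.71 ± 0.11), Il4 (2.61 ± 0.10) and Il21 (2.06 ± 0.20) rose against 0 h groups near the floor. Ltb, which signals in lymphoid tissue formation, fell by 0.90 ± 0.08, and Il10 stayed near the floor on all 6 arrays with 2.26 to 2.27 at 14 h and 2.24 to 2.26 at 0 h.

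Among 13 tested receptors and kinases of the common gamma chain family, 7 rose and 3 fell (median 0.77). Il2ra, the alpha chain that gives the receptor its high affinity, had 9.73, 9.76 and 9.79 at 14 h and 5.56, 4.87 and 5.06 at 0 h (4.60 ± 0.13, adjusted p = 3.09e-12). Il7r, the receptor chain that sustains resting T cells, moved the other way. It had 9.70, 9.68 and 9.85 at 14 h, against 13.08, 12.99 and 12.93 at 0 h (-3.26 ± 0.17, adjusted p = 1.87e-09). The signal transducer Stat5a rose by 2.13 ± 0.14 and Il2rb by 1.28 ± 0.11, while Il21r fell by 0.50 ± 0.12.

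Of 9 tested chemokines 8 rose and 1 fell, with a median of 3.34. Ccl4, a chemokine that attracts leukocytes, had 10.29, 10.20 and 10.36 at 14 h against 4.59, 4.42 and 5.17 at 0 h (5.56 ± 0.31). Ccl22, a ligand of Ccr4, had 7.73, 7.57 and 7.57 at 14 h and lay at the floor at 0 h (5.38 ± 0.12). The interferon-induced ligands of Cxcr3 also rose, Cxcl10 by 4.50 ± 0.16 and Cxcl9 by 4.47 ± 0.14. Ccl5, stored by memory and cytotoxic T cells, was the exception with 8.20, 8.19 and 8.22 at 14 h and 11.69, 11.77 and 11.68 at 0 h (-3.51 ± 0.12).

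Costimulatory and inhibitory receptors rose more often than they fell, with 13 rises and 3 falls among 22 (median 0.90). Tnfrsf9, also called 4-1BB, had 9.80, 9.85 and 9.95 at 14 h and 5.85, 5.85 and 5.84 at 0 h (4.02 ± 0.09). Tnfrsf4, also called OX40, rose by 3.63 ± 0.15, and Ctla4, the inhibitory competitor of Cd28, by 2.70 ± 0.14. Pdcd1, the PD-1 receptor, rose by 1.70 ± 0.09, and Icos by 1.88 ± 0.23. The falls were in Slamf6 (-1.04 ± 0.09), Cd160 (-0.82 ± 0.10) and Cd27 (-0.24 ± 0.08), of which Cd27 was not called without T 0 h replicate 1 (-0.18).

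Receptors for trafficking and adhesion mostly fell, 13 of 21 against 3 rises (median -0.93). Itgae, the integrin that binds E-cadherin, had 7.44, 7.59 and 7.50 at 14 h against 10.35, 10.34 and 10.33 at 0 h (-2.83 ± 0.30). Itga4 fell by 2.13 ± 0.06, Cxcr3 by 2.07 ± 0.23 and Ccr2 by 2.31 ± 0.16. S1pr1, which lets T cells leave lymphoid organs, fell by 1.33 ± 0.14. Cd69, which holds S1pr1 inside the cell and marks early activation, rose by 1.72 ± 0.11, and Ccr7, the lymph node homing receptor, by 1.37 ± 0.13.

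Cytotoxic genes split. Gzmb, the granule protease granzyme B, had 12.71, 12.56 and 12.64 at 14 h and 7.89, 8.03 and 7.83 at 0 h, a change of 4.73 ± 0.12 or 26.5-fold. The granzyme inhibitor Serpinb9 rose by 2.53 ± 0.09. Prf1, which encodes the pore-forming perforin, had 6.79, 6.61 and 6.81 at 14 h, against 8.17, 7.97 and 8.30 at 0 h (-1.41 ± 0.17). Nkg7 fell by 1.14 ± 0.16 and the death ligand Tnfsf10 by 1.65 ± 0.18. In all 6 of 11 rose and 4 fell, against 36.6% and 31.9% of all genes. NK cell markers, of which Prf1 and Nkg7 are members, fell in 3 of 4 and had a summed signal of 11.76 to 11.84 at 14 h and 12.88 to 12.92 at 0 h. Their part in the falls was not tested.

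Genes of the T cell receptor complex and its kinases were lower in 15 of 27 and higher in 3 (median -0.46). With array medians set equal, 14 were lower and 6 higher. Themis, a thymocyte signalling adaptor, fell by 2.11 ± 0.12 and Pag1, which recruits the inhibitory kinase Csk, by 2.08 ± 0.07. Sla, an adaptor that promotes receptor degradation, rose by 1.96 ± 0.09, as did the ubiquitin ligase Cblb by 1.04 ± 0.07. Cd3g had 12.50, 12.43 and 12.45 at 14 h and 13.30, 13.41 and 13.33 at 0 h (-0.89 ± 0.09).

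Among 28 factors of T cell fate and identity, 10 rose and 13 fell, against 36.6% and 31.9% of all genes. The median was -0.12, and 0.12 with the second brightest probe set of each gene. Beside Irf4, the rises included Irf8 (3.80 ± 0.10) and Tbx21, the T helper 1 factor T-bet, with 9.82, 9.74 and 9.70 at 14 h against 6.99, 7.35 and 6.88 at 0 h (2.68 ± 0.14). Nfil3 rose by 2.74 ± 0.15. The T helper 2 factor Gata3 fell by 0.27 ± 0.08 and Lef1 by 0.95 ± 0.24. Bcl6 (0.05 ± 0.10) and Foxp3 (0.01 ± 0.13), factors of follicular helper and regulatory T cells, were not called.

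Genes that maintain the resting state fell in 24 of 28 cases and rose in 2, with a median of -1.08. Txnip, an inhibitor of glucose uptake, had 10.56, 10.68 and 10.50 at 14 h, against 12.83, 12.70 and 12.77 at 0 h (-2.18 ± 0.09). Slfn5 fell by 3.02 ± 0.21 to values near the floor. Its second probe set, with a mean under 5 at both times, gave 0.01. Tent5a fell by 1.99 ± 0.13 and Ddit4, an inhibitor of mTORC1, by 1.56 ± 0.10. Slfn2 (0.68 ± 0.10) and Tob2 (0.55 ± 0.12) rose.

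Immediate early genes were split at 14 h, 10 of 18 higher and 5 lower (median 0.57). Nr4a3, a nuclear receptor induced by calcium signalling, had 11.38, 11.30 and 11.41 at 14 h and 7.06, 7.27 and 6.90 at 0 h (4.29 ± 0.16). Atf3 rose by 4.89 ± 0.14, Fosl2 by 4.05 ± 0.09 and Nr4a2 by 3.42 ± 0.15. Fos, a subunit of AP-1, had 10.36, 10.37 and 10.36 at 14 h against 11.35, 11.38 and 11.27 at 0 h (-0.97 ± 0.11). Jun and Ier5 were lower on the probe set used (-0.76 ± 0.23 and -0.72 ± 0.06), but their second probe sets gave 0.14 and 0.45. Another Ier5 probe set gave -0.14.

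NF-kappaB subunits and targets rose in 16 of 18 and fell in 1 (median 1.46). Rel, the c-Rel subunit, had 8.50, 8.34 and 8.63 at 14 h and 5.45, 5.30 and 4.67 at 0 h (3.35 ± 0.16). Nfkb2 rose by 2.72 ± 0.12 and Cd83 by 2.97 ± 0.10. Feedback regulators of cytokine and kinase signalling rose in 15 of 21 and fell in 3 (median 0.96). The phosphatases Dusp4 (3.87 ± 0.09) and Dusp5 (3.14 ± 0.09) rose, whereas Dusp6 (-0.75 ± 0.11) and Rgs2 (-1.06 ± 0.12) fell.

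Genes for making ribosomes rose almost without exception. Of 49 tested ribosome biogenesis genes 47 rose and 0 fell, with a median of 1.02 and a range of 0.10 to 1.83. Noc4l, a nucleolar assembly factor of the small subunit, had 10.44, 10.57 and 10.52 at 14 h against 8.75, 8.82 and 8.45 at 0 h (1.83 ± 0.11). Polr1b, a subunit of RNA polymerase I, rose by 1.82 ± 0.13, Nop16 by 1.75 ± 0.09 and Rrp9 by 1.73 ± 0.28. Bms1 (0.10) and Taf1b (0.80) were not called. The 31 tested genes for the ribosomal proteins themselves had 3 rises, 6 falls and a median of -0.03. That median was 0.01 after quantile normalization, and cyclic loess gave 2 rises, 24 falls and a median of -0.24. Ribosomal proteins have many processed pseudogenes, and probe sets may not separate the copies.

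CACGTG is the E-box bound by Myc and Max in many growth genes, and it reads the same on both strands. It was searched in windows of 300 bases around RefSeq gene starts (GRCm38.p6), mostly upstream, for genes with 1 listed start. It occurred in 9 of 40 ribosome biogenesis genes (22.5%), 12.7% of the genes higher at 14 h, 9.86% of those lower, 11.1% of the tested genes and 7.12% of the 22862 windows of the table. Nop2, an rRNA methyltransferase that rose by 1.31, and Grwd1, a ribosome assembly factor that rose by 1.44, are shown as examples, with the E-box in capitals. Their windows are chr6:125131633-125131932 on the plus strand and chr7:45830740-45831039 on the minus strand.
Nop2: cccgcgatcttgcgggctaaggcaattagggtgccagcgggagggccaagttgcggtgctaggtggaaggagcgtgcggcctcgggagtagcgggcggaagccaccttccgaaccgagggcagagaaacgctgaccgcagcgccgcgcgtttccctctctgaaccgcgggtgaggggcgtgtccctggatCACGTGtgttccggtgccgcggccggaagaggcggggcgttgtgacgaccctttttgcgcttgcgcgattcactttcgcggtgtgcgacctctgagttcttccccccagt
Grwd1: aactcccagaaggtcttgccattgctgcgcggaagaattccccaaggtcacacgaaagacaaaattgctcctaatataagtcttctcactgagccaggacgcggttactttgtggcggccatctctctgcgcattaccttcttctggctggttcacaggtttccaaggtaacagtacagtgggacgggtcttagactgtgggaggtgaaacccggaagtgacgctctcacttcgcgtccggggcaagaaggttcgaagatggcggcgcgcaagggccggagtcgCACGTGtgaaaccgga
The E-box starts at -60 from the start of Nop2 and at 34 in Grwd1. A match describes the letters and does not show that a factor binds there.

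The translation machinery rose beside ribosome biogenesis. All 18 tested cytosolic tRNA synthetases rose, with a median of 0.82, and 17 did with cyclic loess or quantile normalization. Wars, the tryptophan enzyme, had 9.76, 9.86 and 9.73 at 14 h and 7.58, 8.0 and 7.46 at 0 h (2.11 ± 0.12). Translation factors rose in 25 of 33 and fell in 0 (median 0.69). Their counts depended on scaling, with 18 rises, 3 falls and a median of 0.46 with cyclic loess. After quantile normalization there were 21 rises and 1 fall. Eif2b3, part of the exchange factor for eIF2, rose by 1.61 ± 0.11, and the cap-binding Eif4e by 1.22 ± 0.19. The integrated stress response list differed, with 2 of 11 higher, 1 lower and a median of 0.07; asparagine synthetase Asns rose by 1.17 ± 0.16.

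Building-block metabolism followed the same direction in most genes. Serine, one-carbon and polyamine enzymes rose in 12 of 15 and fell in 0 (median 0.87), with 1 fall under cyclic loess. Psat1, of serine synthesis, had 10.44, 10.27 and 10.42 at 14 h against 8.53, 8.12 and 8.40 at 0 h (2.03 ± 0.11), and Odc1, which makes putrescine, rose by 1.94 ± 0.09. Nucleotide synthesis rose in 18 of 25 and fell in 4 (median 0.67). The pyrimidine enzyme Umps rose by 1.99 ± 0.21. The thymidine kinase Tk1 (-2.52 ± 0.21), the ribonucleotide reductase subunit Rrm2 (-1.70 ± 0.08) and the salvage kinase Dck (-1.41 ± 0.11) fell.

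Nutrient transporters rose in 11 of 17 and fell in 3 (median 0.65). Tfrc, the transferrin receptor for iron uptake, had 12.23, 12.28 and 12.28 at 14 h and 9.99, 10.06 and 10.08 at 0 h (2.23 ± 0.06). Slc29a1, a nucleoside carrier, rose by 2.89 ± 0.33 and Slc7a5, the large neutral amino acid carrier, by 1.37 ± 0.15. The glucose carriers moved apart, with Slc2a1 higher by 0.47 ± 0.12 and Slc2a3 lower by 1.58 ± 0.09. The phosphate carrier Slc20a1 fell by 1.32 ± 0.08.

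Glycolysis genes rose in 10 of 16 and fell in 2 (median 1.09). Hk2, the inducible hexokinase, had 8.80, 8.78 and 9.05 at 14 h, against 5.13, 4.85 and 4.99 at 0 h (3.88 ± 0.21, 14.8-fold). Tpi1 had 11.81, 11.80 and 11.91 at 14 h and 9.80, 9.71 and 9.60 at 0 h (2.14 ± 0.08). Pgam1 rose by 1.77 ± 0.13 and Pgk1 by 1.58 ± 0.08. Pdk1, which restrains entry of pyruvate into mitochondria, fell by 1.06 ± 0.19. Hk1 was lower by 0.40 ± 0.14, and was not called without T 0 h replicate 2 (-0.31) or without T 14 h replicate 2 (-0.39). The second Hk1 probe set, with a mean under 5 at both times, gave 0.27.

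Mitochondrial genes rose in nearly all members. Oxidative phosphorylation genes rose in 35 of 40 and fell in 0, with a median of 0.56. Uqcrq, of complex III, had 11.17, 11.17 and 11.27 at 14 h against 9.95, 10.14 and 10.04 at 0 h (1.16 ± 0.09), and cytochrome c, Cycs, rose by 1.07 ± 0.08. Ndufab1 rose by 1.06 ± 0.08 on the probe set used and fell by 0.67 on its second one, while another gave 2.43. Mitochondrial translation and import genes rose in 36 of 38 and fell in 0 (median 0.94), led by the outer membrane pore Tomm40 (1.64 ± 0.11) and the ribosomal protein Mrpl20 (1.43 ± 0.10).

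Cholesterol synthesis rose in 16 of 17 tested genes and fell in 0, with a median of 1.70. Cyp51, the lanosterol demethylase, had 10.51, 10.41 and 10.54 at 14 h, against 7.34, 7.35 and 7.34 at 0 h (3.14 ± 0.10, adjusted p = 6.37e-12). Idi1 rose by 2.95 ± 0.08, Fdps by 2.54 ± 0.12 and Sqle, a rate-limiting oxygenase, by 2.41 ± 0.07. Dhcr7 (0.04) was not called. The sterol regulatory element recognised by SREBP was searched as TCACNCCAC on both strands and is not a palindrome. It occurred in 1 of 12 cholesterol genes, in 0.88% of the tested genes and in 1.19% of all windows. The match was in Hmgcs1, the synthase ahead of the rate-limiting reductase, which rose by 1.80. Its window chr13:119690101-119690400 (plus strand, GRCm38.p6) is shown with the element, at -137, in capitals.
Hmgcs1: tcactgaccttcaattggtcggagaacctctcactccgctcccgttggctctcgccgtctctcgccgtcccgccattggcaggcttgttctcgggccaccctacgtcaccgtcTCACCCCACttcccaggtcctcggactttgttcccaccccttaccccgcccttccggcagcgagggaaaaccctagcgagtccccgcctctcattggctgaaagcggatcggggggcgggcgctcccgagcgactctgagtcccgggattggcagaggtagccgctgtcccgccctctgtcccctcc

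Protein turnover and folding genes rose more often than they fell. Proteasome genes rose in 34 of 36 and fell in 1 (median 0.92). Psme3, an activator of the proteasome core, had 9.74, 9.75 and 9.79 at 14 h and 7.67, 7.86 and 7.68 at 0 h (2.02 ± 0.07), while the immunoproteasome subunit Psmb10 fell by 0.79 ± 0.07. Cytosolic and mitochondrial chaperones rose in 21 of 25, and the 2 that fell were Hspa1a and Hspa1b. The mitochondrial chaperonin Hspd1 rose by 1.50 ± 0.08. Endoplasmic reticulum folding genes rose in 16 of 24 and fell in 5 (median 0.59), with Sdf2l1 (1.68 ± 0.10) and Pdia6 (1.67 ± 0.13) among the rises. Herpud1 (-0.79 ± 0.09) and Dnajc3 (-0.73 ± 0.10) were among the falls. Edem1 was lower by 0.54 ± 0.08 on the probe set used and gave 0.14 on its second one.

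Cell cycle genes split by phase. Of 49 tested genes of G1/S and replication 31 rose and 10 fell (median 0.46). The helicase subunit Mcm2 had 10.12, 10.06 and 10.17 at 14 h against 9.09, 8.87 and 8.86 at 0 h (1.18 ± 0.08). Gins1, a partner of that helicase, rose by 1.50 ± 0.15 and Cdk4, the kinase of D cyclins, by 1.09 ± 0.09. E2f2 had 3.67, 4.53 and 4.12 at 14 h and 7.01, 7.11 and 7.11 at 0 h (-2.98 ± 0.20), and Ccnd3 fell by 0.90 ± 0.07.

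Genes of G2/M and mitosis were lower at 14 h in 25 of 31 and higher in 3, with a median of -1.06. Kif23, a kinesin of cytokinesis, had 3.74, 4.22 and 4.21 at 14 h against 7.48, 7.73 and 7.57 at 0 h (-3.53 ± 0.14). Mki67, which marks cycling cells, had 6.03, 6.42 and 6.35 at 14 h and 9.45, 9.39 and 9.27 at 0 h (-3.10 ± 0.10). Ube2c fell by 2.75 ± 0.18 and Ccnb2, cyclin B2, by 2.69 ± 0.10. Plk4 rose by 0.47 ± 0.08. Aurka was called higher (0.60 ± 0.22), but its arrays overlapped and the call was lost without T 0 h replicate 2 (0.30) and without T 14 h replicate 3 (0.40). Bub3 rose by 0.30 ± 0.06, against -0.51 as the mean of its probe sets.

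Erythroid markers moved with these falls. Of 16 tested markers 13 fell and 0 rose, with a median of -2.27. Their summed signal was 8.55 to 8.66 at 14 h and 12.75 to 12.79 at 0 h. Klf1, the erythroid master factor, had 2.4, 2.41 and 2.41 at 14 h against 8.16, 7.94 and 7.73 at 0 h (-5.54 ± 0.10). Car1, carbonic anhydrase of red cells, had 7.30, 7.17 and 7.32 at 14 h and 12.12, 12.22 and 12.19 at 0 h (-4.91 ± 0.11), and Ermap fell by 5.61 ± 0.20. The late markers Alas2 and Epb42 averaged 2.2 at both times. The part of erythroid cells in the falls of mitotic and other genes was not tested. In bulk samples fewer cells of a type and less RNA per cell cannot be told apart.

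**Figure D3:**
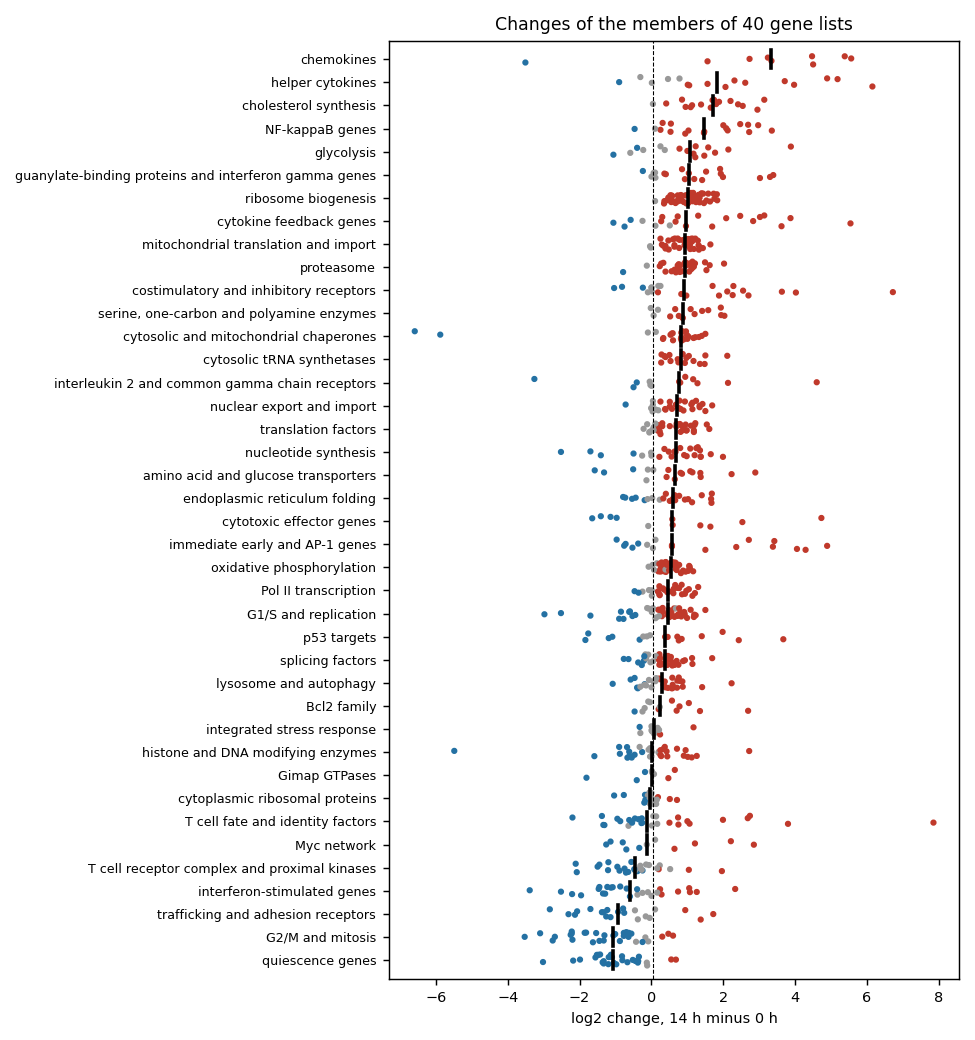
Log2 change, 14 h minus 0 h (x axis), of each tested member of 40 gene lists (rows), in red where called higher, blue where called lower and grey where not called. Black bars mark list medians, which run from -1.08 for quiescence genes to 3.34 for chemokines, and the dashed line marks 0.03, the median of all tested genes.

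Genes induced by interferons moved in both directions. Guanylate-binding proteins and other interferon gamma genes rose in 14 of 19 and fell in 1 (median 1.04). Gbp2, a GTPase that coats intracellular pathogens, had 13.88, 13.87 and 13.89 at 14 h against 10.49, 10.68 and 10.58 at 0 h (3.30 ± 0.08, 9.83-fold). Iigp1 rose by 3.39 ± 0.13 and the feedback inhibitor Socs1 by 3.02 ± 0.12. The immunity-related GTPase Igtp had 13.45, 13.60 and 13.65 at 14 h against 11.63, 11.53 and 11.56 at 0 h (1.99 ± 0.10). Type I interferon-stimulated genes fell in 15 of 27 and rose in 7 (median -0.60). Cmpk2 had 2.83, 3.33 and 4.35 at 14 h and 6.67, 6.86 and 7.15 at 0 h (-3.39 ± 0.32). The RNA sensor Ddx58, also called RIG-I, fell by 2.52 ± 0.13, whereas the nucleic acid sensor Zbp1 rose by 2.33 ± 0.08. Stat2 was called higher (1.26 ± 0.49), but not without T 0 h replicate 2 (0.72).

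Survival and damage genes changed in both directions. Bcl2l1, which encodes the survival protein Bcl-xL, had 9.11, 9.11 and 9.09 at 14 h against 6.46, 6.46 and 6.33 at 0 h (2.69 ± 0.10). Bcl2 itself fell by 0.47 ± 0.08, and the pro-apoptotic Pmaip1 rose by 1.35 ± 0.10. Of 13 Bcl2 family genes 7 rose and 1 fell (median 0.23, and 0.4 after quantile normalization). Of 17 p53 targets 9 rose and 5 fell (median 0.38), against 36.6% and 31.9% of all genes. Gadd45b rose by 3.67 ± 0.10 and the cell cycle inhibitor Cdkn1a by 2.43 ± 0.23, whereas Gadd45a fell by 1.76 ± 0.14 and Sesn1 by 1.84 ± 0.14.

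Genes of RNA synthesis and handling rose more often than they fell. The counts were 22 rises and 2 falls of 28 for RNA polymerase II transcription (median 0.46), 29 and 6 of 41 for splicing (median 0.37), and 21 and 1 of 28 for nuclear transport (median 0.71). With cyclic loess, splicing had 20 rises, 8 falls and a median of 0.19. The splicing factor Prpf31 had 9.75, 9.82 and 9.90 at 14 h and 8.18, 8.17 and 8.05 at 0 h (1.69 ± 0.08). Ranbp1, of the Ran cycle of nuclear transport, rose by 1.34 ± 0.06. Histone and DNA modifying enzymes showed no common direction, with 14 rises and 11 falls of 33, against 36.6% and 31.9% of all genes. Their median was 0.01, and -0.04 after quantile normalization. Suv39h2 rose by 2.72 ± 0.33 and Kmt2d fell by 1.59 ± 0.10. Lysosome and autophagy genes rose in 18 of 32 and fell in 6 (median 0.29), with the galactosidase Gla higher by 2.23 ± 0.12.

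The 14 h and 4 h arrays were compared to ask which genes differed between the 2 ConA groups. Xist was 2.38 to 4.33 at 4 h and 11.70 to 11.86 at 14 h. The summed myeloid markers were 10.82 to 11.26 at 4 h and 8.19 to 8.41 at 14 h. Time therefore cannot be told apart from sex or cell composition in this comparison. The changes at 14 h and 4 h share the 0 h arrays, so each is given beside the other and only 14 h minus 4 h was tested as a difference. Against 4 h, 2479 genes (27.4%) were higher at 14 h and 1948 (21.5%) were lower, with a median of 0.02. Myc did not pass this test (0.30 ± 0.43, adjusted p = 0.601). It had 8.37 on T 4 h replicate 1, the array with a dap difference of 5.35. On the other 4 h arrays it had 10.21 and 10.19, above every 14 h value. The sign of the Myc difference therefore rests on that replicate. Lag3 (5.39 ± 0.09), Tg (4.63 ± 0.11), Ccl22 (4.44 ± 0.12), Selp (3.18) and Gzmb (2.92 ± 0.12) were among the largest rises over 4 h. Irf4 (-0.46 ± 0.19), Lad1 (-0.18 ± 0.12) and Mir155hg (-0.16 ± 0.18) did not pass.

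Several lists differed between the times. Oxidative phosphorylation genes were higher at 14 h than at 4 h in 33 of 40 and lower in 0, with median changes from 0 h of 0.17 at 4 h and 0.56 at 14 h. Glycolysis genes were higher in 13 of 16 and lower in 0 (0.22 at 4 h, 1.09 at 14 h). Cholesterol genes were higher in 15 of 17 and lower in 0 (0.98 at 4 h, 1.70 at 14 h). G1/S and replication genes were higher in 40 of 49 and lower in 1 (-0.24 at 4 h, 0.46 at 14 h).

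Early regulators went the other way. Immediate early genes were lower at 14 h than at 4 h in 15 of 18 and higher in 0 (1.64 at 4 h, 0.57 at 14 h). Feedback genes were lower in 13 of 21 and higher in 3. Ribosome biogenesis genes were lower in 18 of 49 and higher in 5, with medians from 0 h of 1.19 at 4 h and 1.02 at 14 h. Among single genes Il6 differed from 4 h by -3.07, Bcl6 by -2.07 and Il4 by -2.04.

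**Figure D4:**
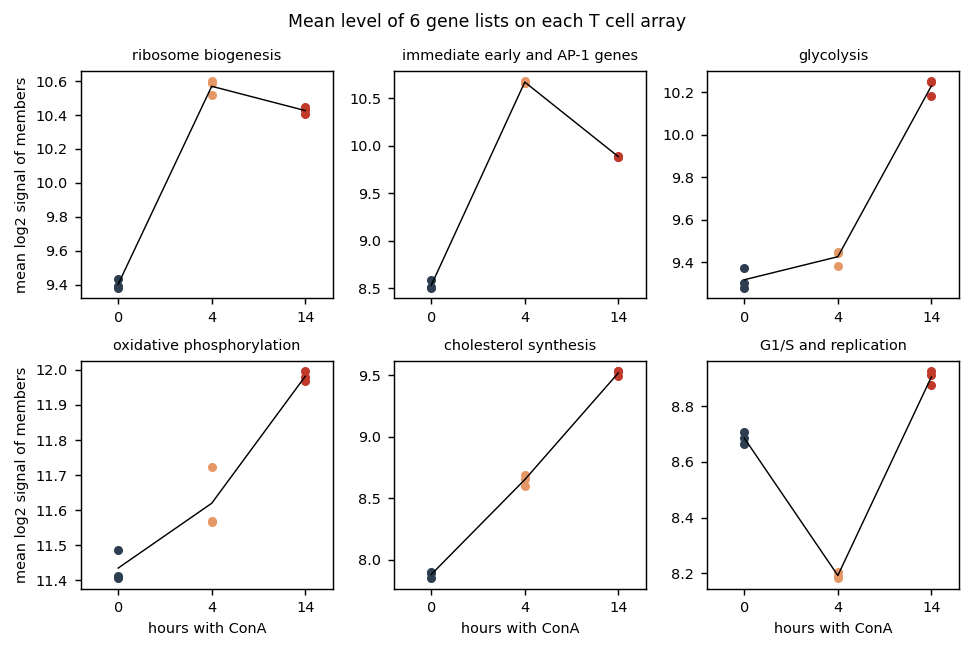
Mean log2 signal of the tested members of 6 lists (y axis, a scale of its own in each panel that does not start at 0) at 0, 4 and 14 h with ConA (x axis). Points are single arrays and lines join group means. Cholesterol genes lie at 7.85 to 7.90, 8.60 to 8.69 and 9.49 to 9.53, while immediate early genes peak at 4 h.

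Sex-linked and myeloid genes also differed between the groups. Xist, the RNA of the inactive X chromosome in female cells, had 12.15, 12.31 and 12.29 at 0 h, 2.38 to 4.33 at 4 h and 11.70, 11.74 and 11.86 at 14 h. It was 8.58 ± 0.33 higher at 14 h than at 4 h, and the 14 h and 0 h difference of -0.48 ± 0.33 was not called. All 3 tested Y-linked genes were lower at 14 h than at 0 h and lower than at 4 h. Their summed signal was 11.02 to 11.31 at 0 h, 11.84 to 12.07 at 4 h and 10.29 to 10.49 at 14 h. Eif2s3y had 10.02, 10.16 and 10.05 at 14 h, against 10.91, 10.61 and 10.67 at 0 h (-0.65 ± 0.13). Xist and Y-linked signals were thus present together at 14 h and at 0 h. The part of sex composition in the other differences was not tested.

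Markers of other cell types moved differently from list to list. Of all tested genes, 36.6% were higher and 31.9% lower at 14 h. Of 14 monocyte, macrophage and neutrophil markers 7 fell and 0 rose, with a summed signal of 8.19 to 8.41 at 14 h and 9.66 to 10.06 at 0 h. S100a8, a neutrophil calcium-binding protein, had 4.53, 5.04 and 4.44 at 14 h and 7.36, 7.68 and 7.40 at 0 h (-2.81 ± 0.19). The macrophage genes C1qa and Cd5l averaged 2.2 at both times. Among B cell markers, 5 of 11 fell and 1 rose (summed 8.81 to 8.99 at 14 h, 10.39 to 10.53 at 0 h). Without T 0 h replicate 2 the B cell counts were 2 falls and 2 rises, and 3 B cell markers fell with cyclic loess or quantile normalization. Of 3 tested mast cell and basophil markers, the basophil protease Mcpt8 rose by 1.75, while the mast cell protease Cpa3 fell by 2.36 and the receptor Kit by 1.84. Of 2 tested platelet markers, the chemokine Pf4 rose by 1.63 and Ppbp did not pass (0.01). Of 3 tested plasma cell markers 2 fell and 1 rose. The 3 tested dendritic cell markers and the 1 tested stromal marker were not called. The part of these cells in any result was not tested.

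**Figure D5:**
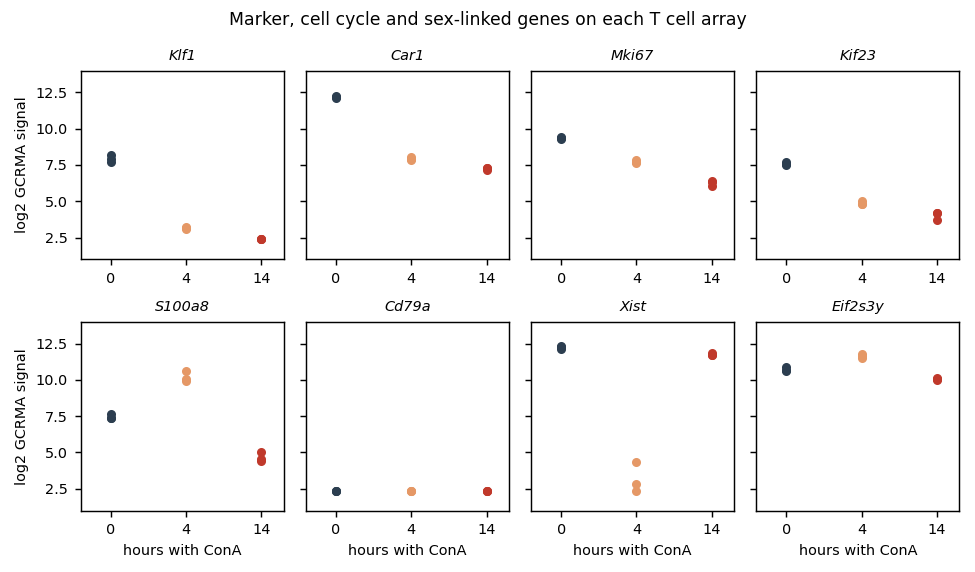
Log2 GCRMA signal (y axis) on each T cell array at 0, 4 and 14 h with ConA (x axis) of erythroid (Klf1, Car1), mitotic (Mki67, Kif23), neutrophil (S100a8), B cell (Cd79a) and sex-linked (Xist, Eif2s3y) genes. Erythroid and mitotic signals are highest at 0 h, S100a8 at 4 h, and Xist is low only at 4 h among these groups.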

How the data were processed

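RNA from 15 mouse lymphocyte samples was measured on Affymetrix arrays with 45101 probe sets. The deposited values are log2 signals that the authors made with GCRMA, a background correction and normalization, per the submitters' processing notes. The sources used here give no version of it. Values were used as deposited. Of the probe sets, the platform's gene table lists 34958 with 1 gene, 932 with several and 9211 with none, and 34754 matched RefSeq.

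Group means over all 15 arrays were estimated in 1 model with R 4.3.3 and its package limma 3.58.1, with moderated variances. P-values were adjusted by Benjamini-Hochberg over 9045 genes. Members and gene lists were chosen with earlier results of these data known. The method was checked on simulated data. Errors are standard errors, and the 3 arrays per group limit precision.

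Named genes were Myc, the 12 largest rises and falls (higher group at 7 or more on average, no overlap, no receptor segments or unnamed genes), up to 4 called members per list and up to 3 against its majority, markers, and the 6 largest differences from 4 h in each direction. Others in the text are list members chosen after their values were seen. Replicate numbers were not used to pair the arrays in the main model. Alternatives covered samples, variance prior, scaling, filter, probe set choice, left-out arrays, the block and a spike-in covariate.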

Additional observations from a re-analysis of the deposited data

Results flagged for a closer look

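For 11 named genes, the change from 0 h had opposite signs at 14 h and at 4 h, both called. A called difference of 14 h minus 4 h was also a condition of the choice, so that call is not a separate result. The neutrophil genes S100a9 and S100a8 differed by -6.00 and -5.52, with 3 arrays each. St6galnac3 differed by -4.09, Ttc28 by -3.09, Rgs2 by -1.72, Il21r by -0.81 and Nlrc5 by -0.47. These 7 were lower at 14 h than at 0 h and higher at 4 h than at 0 h. The others were higher at 14 h and lower at 4 h: Tpi1 differed by 2.51, Gimap7 by 2.25, Gins1 by 2.01 and Ifi27l2a by 1.53. All these responses share the 0 h arrays. The 4 h group also differed in Xist and myeloid markers, so time cannot be told apart from sex or cell composition.

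Probe sets without a listed gene were outside the tests by gene. The largest rises among them with a clear signal were 4.89 for probe set 1449254_at and 4.68 for probe set 1416666_at, 14 h minus 0 h. The largest falls were greater in size, at -7.44 for probe set 1440188_at and -5.98 for probe set 1449077_at. Groups of 3 arrays are too small for a test of single outlying arrays.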

How the results depend on the processing

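Over 24 alternatives, the number of genes higher at 14 h than at 0 h was 2707 to 3502, and that of genes lower at 14 h than at 0 h was 2125 to 3062. Leaving out 1 array at a time gave 3032 to 3190 and 2665 to 2846. Fewer alternatives, without quantile normalization, filter or probe set choices, covered the comparison with 4 h. For genes higher at 14 h than at 4 h and genes lower the counts were 2099 to 2546 and 1616 to 1967. No count moved by over 1.5 times. Myc stayed called, at 1.60 to 2.55 (adjusted p 3.6e-06 to 0.00698). With the replicate block the counts were 3266 and 2833, and Myc had 2.21. Same-numbered arrays did not deviate together (correlations of -0.04, 0.10 and -0.09). This cannot show whether they share an animal or a batch, which the sources do not say. The difference in genes per array was -39 at a level of 6 (exact p = 0.4), and the cause was not tested. Of 4573 values for 220 named genes, 4500 kept their direction and call, 65 were no longer called, mostly for Ptpn22, Cebpb, Aurka, Jak1 and Stat2, and 8 changed sign. The second probe set gave Slfn5 0.01, Jun 0.14, Ier5 0.45, Hk1 0.27, Edem1 0.14 and Ndufab1 -0.67. Those of Slfn5 and Hk1 had means under 5 at both times. Cyclic loess gave Rps2 -0.03, and the mean of all probe sets gave Bub3 -0.51. The cause was not tested. Of 840 values for 40 list medians, 674 stayed within the spread between replicates and 166 moved by more. Of the 40 medians, 4 changed sign under some alternative, and all 4 lay near 0. Scaling moved the median of all genes by less than 0.1, but each scaling started from values that were already normalized. A fall to the floor has only a bound: 189 falls and 116 rises had a mean under 4 in the lower group.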

Other observations

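The Gimap GTPases, which are clustered in the genome and support the survival of resting T cells, showed no common direction. Of 8 tested, 2 were higher at 14 h and 3 were lower, against 36.6% and 31.9% of all genes. Their median of 0.01 turned to -0.10 with cyclic loess. Gimap5 had 7.15, 7.61 and 7.29 at 14 h and 9.22, 9.08 and 9.18 at 0 h, a fall of 1.81 ± 0.11 (SE). Gimap9 had 12.19, 12.17 and 12.07 at 14 h and 11.49, 11.51 and 11.48 at 0 h, a rise of 0.65 ± 0.07. Neither gene's arrays overlapped between the groups.

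Single genes showed other patterns across the T cell groups. Mpzl2, a cell adhesion protein, averaged 2.3 at 0 h, 7.0 at 4 h and 2.9 at 14 h, and changed by -4.14 ± 0.15 between 4 h and 14 h. Prag1, a pseudokinase, averaged 8.2 at 0 h, 8.1 at 4 h and 4.2 at 14 h, and changed by -3.82 ± 0.10 between 4 h and 14 h. Among 9160 probe sets with no listed gene, 6 were at least 3 higher at 14 h than at 0 h and 49 were at least 3 lower.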
